A study of Mus musculus with 6 samples.

Results

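The immediate early transcription factors *Fos*, *Fosb*, *Jun*, *Junb*, *Egr1*, *Egr2*, *Atf3*, *Ier2*, *Nr4a1* and *Myc* were followed in infarcted mouse left ventricles. They were taken by gene symbol from the deposited table, where all 10 were found among 17556 genes and all 10 passed the filter on low counts. Bulk RNAseq was done on left ventricles of 3 Cre positive and 3 Cre negative siblings, aged 6 to 10 weeks. Both groups carried floxed *Yap* and *Wwtr1*, were infarcted by lasting ligation of the left anterior descending coronary artery, ate tamoxifen citrate chow from surgery onward and were collected at 4 days post injury (dpi). Cre positive mice also had 1 copy of MerCreMer, a tamoxifen-activated Cre, at the endogenous periostin locus, which is meant to remove both *Yap* alleles and 1 *Wwtr1* allele in myofibroblasts. Cre negative mice had wildtype *Postn*. The question was whether ventricles in which myofibroblasts are targeted for Yap and Wwtr1 depletion differed in these transcripts, with RNA of the whole ventricle as the readout.

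Immediate early genes are transcribed within minutes of a stimulus, without new protein synthesis, when kinase cascades activate factors such as SRF, its ETS partners and CREB that already sit at their promoters. Their mRNAs are short-lived, and most of their proteins are transcription factors that start a second wave of transcription. Fos and Jun proteins pair through leucine zippers to form AP-1, which binds near many injury, matrix and inflammatory genes and is known to share enhancers with Yap and TEAD factors. In the heart these genes are known for sharp, brief induction by ischemia, stretch and adrenergic drive.

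Promoter sequences are shown for the Fos, Jun and Atf3 genes, whose products pair with each other, and for *Egr2*, since rapid induction acts through sites close to the start. RefSeq windows of assembly GRCm38.p6, the build named in the submitters' processing notes, were matched for 7 of the 10 members. *Ier2*, *Myc* and *Egr1* had no window in the promoter table used here. Each line below gives the 120 bases before the start, 5′ to 3′ on the gene's strand. Capitals mark TGACG on either strand (the core of the cAMP response element, CRE), the TATA box (TATAAA) or TGACATCA, the AP-1-like site for which the *Jun* promoter is known.
Fos (chr12:85473770-85473889, plus strand): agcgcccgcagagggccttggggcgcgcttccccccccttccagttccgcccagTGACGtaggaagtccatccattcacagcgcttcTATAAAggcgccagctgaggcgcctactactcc
Jun (chr4:95052223-95052342, minus strand): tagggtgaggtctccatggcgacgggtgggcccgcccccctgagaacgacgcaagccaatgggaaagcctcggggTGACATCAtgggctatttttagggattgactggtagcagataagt
Junb (chr8:84978749-84978868, minus strand): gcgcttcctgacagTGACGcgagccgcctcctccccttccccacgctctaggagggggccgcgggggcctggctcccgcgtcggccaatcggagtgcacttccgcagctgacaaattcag
Atf3 (chr1:191183334-191183453, minus strand): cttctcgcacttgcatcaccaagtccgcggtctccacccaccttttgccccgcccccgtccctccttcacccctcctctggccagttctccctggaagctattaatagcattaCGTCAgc

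For *Egr2*, which has several annotated starts, only 30 bases are shown, with the CArG box (the SRF binding motif) and TGACG on the opposite strand in capitals.
Egr2 (chr10:67537792-67537821, plus strand): tcagtCCATATATGGgcagcgaCGTCAcgg

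In the 250 bases before the start, TGACG was found on either strand in 6 of the 7 members, and 17.77% of 32851 promoter windows of this length held it. *Fos* had it 66 and 129 bases before the start, *Junb* at 106 and *Atf3* at 7. *Nr4a1* had 4 such matches and *Fosb* had 1, 60 bases before the start. *Jun* had none, but it was the member with TGACATCA, 45 bases before the start (2.93% of windows). The CArG box was found in *Egr2*, in 4 of its 5 windows, and in 1.47% of all windows. The TATA box was found in *Fos*, 33 bases before the start (7.59% of windows). The full CRE, TGACGTCA, which contains TGACG, was found in 0 of the 7 members (1.55% of windows), as were the AP-1 site TGANTCA (6.75%) and the EGR site GCGTGGGCG (0.54%). Such matches describe letters in these windows and not binding, and sites farther before the start were not searched.

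The estimated counts summed to between 13177888 and 14827579 per ventricle, so a gene with 0 counts could have had up to 3 counts, or 0.202 to 0.228 CPM (counting error only). The labels number the ventricles as replicates without naming the mice, so p-values measure the spread between these 6 samples. The targeted genes were measured first. Normalized counts of *Yap1* were 1550, 1476 and 1422 in Cre negative and 1619, 1439 and 1477 in Cre positive ventricles (log2 fold change 0.03, adjusted p = 0.935, edgeR), and those of *Wwtr1* lay between 1466 and 1664 in all 6, so depletion was not detectable in whole ventricle RNA. *Postn*, which marks the cells in which Cre is expressed, had 12182, 24690 and 26918 normalized counts in Cre negative and 12708, 14270 and 13514 in Cre positive ventricles, with overlap. Of the 8 ventricular cardiomyocyte markers, *Myl2* was at 8655 TPM (transcript abundance scaled by gene length and library size) or more, and together they summed to 53632 to 63748 TPM in Cre negative and 48239 to 52166 in Cre positive ventricles, without overlap. Cre negative replicate 1 stood apart. Its chi-square per gene against the other libraries was 42.5 to 65.6, while the other pairs had 7.86 to 16.5. Its 7 neutrophil markers summed to 426 TPM, against 53.2 to 162 in the other ventricles. Its fibroblast collagens were low, *Col1a1* at 1549 TPM against 2435 to 3260, but *Dcn* at 851 TPM lay within the range of the others (683 to 913). Cre positive replicate 1 had the highest TPM of the atrial light chain *Myl7* (611), which ranged from 18.1 to 492 elsewhere. It was also the library with skeletal muscle myosins, with 756 counts of *Myh1* against 0 to 5 in the others, 208 of *Myh2* against 0 to 1 and 35 of *Myh4* against 0.

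Transcripts of all 10 genes were present in every ventricle at 4 dpi, with *Junb* the most and *Fosb* the least abundant. Levels are compared between genes in TPM, the length-scaled unit that the authors deposited. Over the 6 ventricles the median TPM was 124 for *Junb*, 72.0 for *Jun*, 41.3 for *Ier2*, 38.0 for *Egr1*, 27.6 for *Myc*, 26.9 for *Nr4a1*, 22.7 for *Atf3*, 16.6 for *Fos*, 11.7 for *Egr2* and 1.80 for *Fosb*. *Junb* and *Jun* lay apart from each other and from all members below them, with ranges of 104 to 141 and 53.5 to 83.8 TPM. From *Ier2* down to *Fos* the range of each gene overlapped that of the next. Within ventricles, however, *Egr1* exceeded *Myc* and *Atf3* exceeded *Fos* in 6 of 6. *Myc* lay below *Nr4a1* in the 3 Cre negative ventricles and above it in the 3 Cre positive ones, which is a description of these levels. The order of *Ier2* and *Egr1* held in 3 of 6 ventricles and that of *Nr4a1* and *Atf3* in 4, so these neighbours could not be ranked. Among genes further apart, *Ier2* (33.1 to 43.9 TPM) and *Egr1* (29.7 to 48.9 TPM) lay wholly above *Nr4a1* (22.9 to 28.4 TPM) and *Fos* (15.5 to 18.3 TPM), and *Myc* (19.8 to 31.1 TPM) lay above *Fos*. *Egr2* (6.25 to 12.8 TPM) lay below *Fos*, and *Fosb* (1.32 to 2.24 TPM) lay below *Egr2*. Of all 17556 genes, 92.9% had a median TPM at or below that of *Junb* and 29.5% at or below that of *Fosb*.

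**Figure D1:**
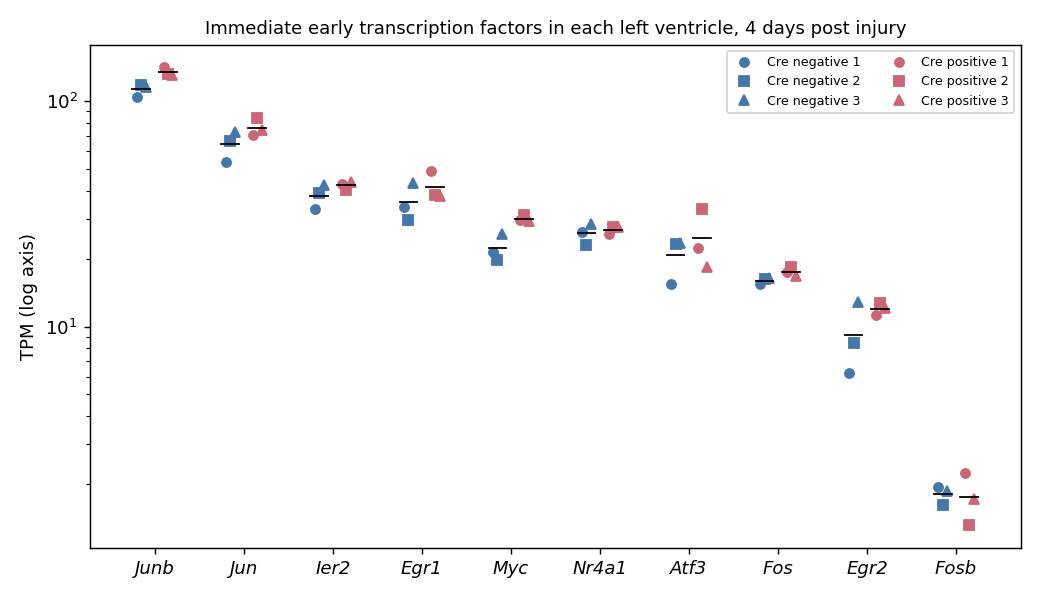
TPM of each immediate early transcription factor (log axis) in the 3 Cre negative and 3 Cre positive left ventricles, with a point per ventricle and a bar at the group mean. *Junb* lay highest at 104 to 141 TPM and *Fosb* lowest at 1.32 to 2.24 TPM, and the groups did not overlap, with Cre positive above, for *Junb*, *Myc* and *Fos* on this scale, as for 2068 (15%) of the 13817 genes tested.

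None of the 10 genes passed the test between genotypes. The log2 fold changes between Cre positive and Cre negative ventricles ran from −0.22 for *Fosb* to 0.31 for *Myc*. Adjusted p-values over all 13817 genes tested ran from 0.714 to 0.987 (edgeR's quasi-likelihood test), and 0.00724% of all genes tested, a single gene, passed. Without adjustment 1 member, *Myc*, had a p under 0.05, and 5.83% of all genes did. DESeq2's Wald test also called 0 members (0.0362% of all genes), and 1 had an unadjusted p under 0.05, as did 5.88% of all genes. With limma on log2(TPM + 1) the count was again 0 (0.0145% of all genes), and 2 members had such an unadjusted p, against 7.23% of all genes. Log2 fold changes were above 0 for 8 of the 10 members, with a median of 0.12, while 51.2% of all genes were above 0, with a median of 0.006. That median fell to 0.05 without Cre negative replicate 1 and to 0.04 without Cre positive replicate 1. On the TPM scale, where the median of all genes was itself 0.11 higher in Cre positive ventricles (log2(TPM + 1)), the members' median was 0.22. In 2 members, *Myc* and *Junb*, every Cre positive ventricle lay above every Cre negative one in normalized counts, as did 7.55% of all genes tested. The smallest p that an exact permutation test of 3 against 3 ventricles allows is 0.1.

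**Figure D2:**
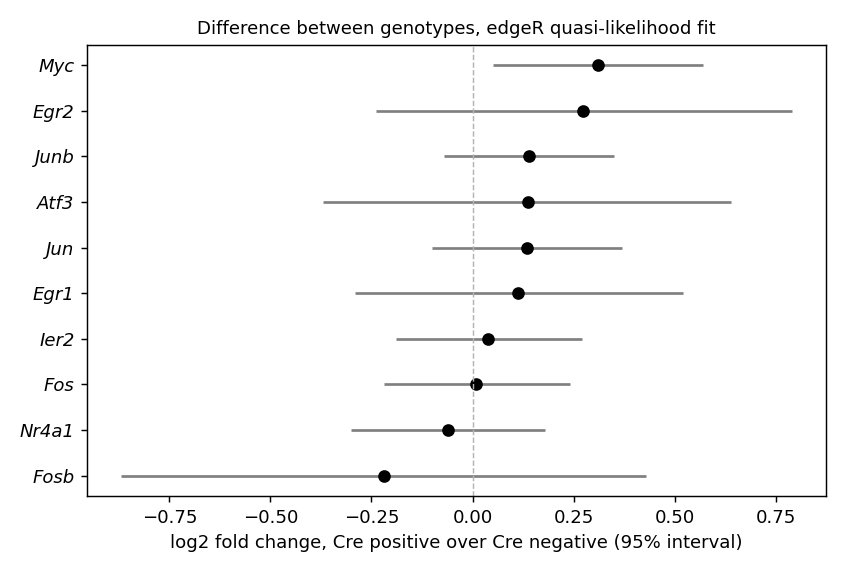
Log2 fold change of each gene between Cre positive and Cre negative ventricles from edgeR's quasi-likelihood fit, with its 95% interval. The interval included 0 for 9 genes and ran from 0.05 to 0.57 for *Myc*, before adjustment for the number of genes.

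*Myc* (gene number 17869, chr15:61985341-61990361 on GRCm38.p6) encodes a helix-loop-helix leucine zipper factor that pairs with Max and drives ribosome production and growth. Its normalized counts, which are scaled by TMM to a common library size, were 437, 364 and 470 in Cre negative and 539, 525 and 513 in Cre positive ventricles. All 3 Cre positive values lay above the Cre negative ones and close together, at 525 ± 12.9 (SD, n = 3) against 424 ± 54.4 (SD, n = 3). On the log2 scale the Cre positive mean was 0.31 higher (standard error, SE, 0.11, adjusted p = 0.714, edgeR), and the exact two-sided permutation p was 0.1. Without Cre positive replicate 1 the log2 fold change was 0.29 (adjusted p = 0.759, edgeR). The groups were also apart in unscaled counts (370 to 483 against 524 to 568) and in TPM (19.8 to 25.7 against 29.5 to 31.1). The log2 fold change was above 0 in all 14 other settings, from 0.21 without Cre negative replicate 2 to 0.44 on log2(TPM + 0.1), with adjusted p-values from 0.509 to 0.958. *Myc* made up 85.4 to 89.9% of the TPM of its family, with *Mycn* at 8.7 to 13.7% and *Mycl* at 0.3 to 3.3%. The cardiomyocyte marker sum in TPM was lower in every Cre positive ventricle as well, and all 8 markers had a log2 fold change below 0. The sum of 6 endothelial markers was higher (499 to 551 against 413 to 484 TPM), on a scale where the median of all genes was also higher. In the edgeR fit only 4 of these 6 markers were above 0 and 2 below, with a median of 0.04. The part of these cell types in the *Myc* difference was not tested. In RNA of a whole ventricle, more cells that express a gene and more RNA per cell cannot be told apart.

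*Junb* (gene number 16477, chr8:84976909-84978748, minus strand) encodes an AP-1 subunit that often restrains growth where Jun promotes it. Its normalized counts were 1614, 1643 and 1600 in Cre negative and 1947, 1685 and 1721 in Cre positive ventricles. The Cre negative values lay close together, and Cre positive replicate 1 lay well above the rest. The difference on the log2 scale was 0.14 (SE 0.09, 95% interval −0.07 to 0.35, adjusted p = 0.714, edgeR), with an exact permutation p of 0.1. Without Cre positive replicate 1, which also had the most *Myl7*, it was 0.07 (adjusted p = 0.823). What that library's atrial and skeletal muscle transcripts contribute was not tested.

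*Jun* (gene number 16476, chr4:95049036-95052222, minus strand), the AP-1 subunit that also pairs with itself, had 1465, 1634 and 1793 normalized counts in Cre negative and 1736, 1900 and 1733 in Cre positive ventricles. The groups overlapped, and Cre negative replicate 1 was the lowest of the 6. *Jun* differed by 0.13 on the log2 scale (SE 0.10, 95% interval −0.10 to 0.37, adjusted p = 0.724, edgeR), and without that ventricle it was 0.06 (adjusted p = 0.914). *Jund*, the third Jun gene, took the largest share of the Jun family, 45.6 to 53.3% of its TPM. *Junb* took 30.9 to 32.0% in Cre negative and 32.7 to 33.9% in Cre positive ventricles, without overlap, which was not tested. *Jun* took 15.9 to 21.1%.

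*Fos* (gene number 14281, chr12:85473890-85477274, plus strand), which can bind DNA as AP-1 only with a Jun partner, was the most even of the 10 genes. It had 274, 259 and 260 normalized counts in Cre negative and 276, 268 and 252 in Cre positive ventricles. The values were interleaved between genotypes and the highest was 1.09 times the lowest. Its coefficient of variation over the 6 ventricles was 3.59%, less than the 6.15% that counting alone gives at its mean count. *Fos* was the only member below its counting variation, as were 6.96% of all genes tested. Its log2 fold change was 0.01 (SE 0.10, 95% interval −0.22 to 0.24, adjusted p = 0.987, edgeR). In TPM *Fos* was higher in every Cre positive ventricle (16.7 to 18.3 against 15.5 to 16.4), and the sign of its fold change turned with DESeq2's size factors (−0.002), so no direction is given.

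*Fosb* (gene number 14282, chr7:19302696-19310118, minus strand), a Fos relative known for a long-lived short isoform in brain, was near the lower end of what was measured. It had 54, 47 and 56 counts in Cre negative and 61, 36 and 48 in Cre positive ventricles before scaling. The groups overlapped, with the highest and the lowest value both in Cre positive ventricles. The coefficient of variation was 21.9%, against 14.1% from counting. A log2 fold change of −0.22 came with a wide error (SE 0.28, 95% interval −0.87 to 0.43, adjusted p = 0.818, edgeR), with −0.02 without Cre positive replicate 2 and −0.45 without Cre positive replicate 1.

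The Fos family was led not by *Fos* but by *Fosl2* (Fra-2), an AP-1 subunit outside the 10 that is known for a role in fibrosis. *Fosl2* made up 49.4 to 59.8% of the family's TPM, *Fos* 33.7 to 43.5%, *Fosb* 2.5 to 4.6% and *Fosl1* 2.8 to 4.3%. The share of *Fosl2* was higher in every Cre positive ventricle (57.8 to 59.8%) than in the Cre negative ones (49.4 to 55.6%), and that of *Fos* was lower (33.7 to 34.9% against 36.4 to 43.5%). These shares describe levels and were not tested. Normalized counts of *Fosl2* were 1206, 845 and 1023 in Cre negative and 1334, 1296 and 1291 in Cre positive ventricles. Every Cre positive value lay above every Cre negative one, as for 7.55% of all genes tested. A difference of 0.35 on the log2 scale (SE 0.13) did not pass the test (adjusted p = 0.714, edgeR), and it was 0.23 without Cre negative replicate 2. Summed TPM of the Fos family was 37.3 to 42.5 in Cre negative and 49.6 to 52.5 in Cre positive ventricles, a scale on which the median of all genes was also higher in Cre positive ventricles. In every ventricle Jun family TPM exceeded Fos family TPM, by 7.55 to 9.89 times.

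**Figure D3:**
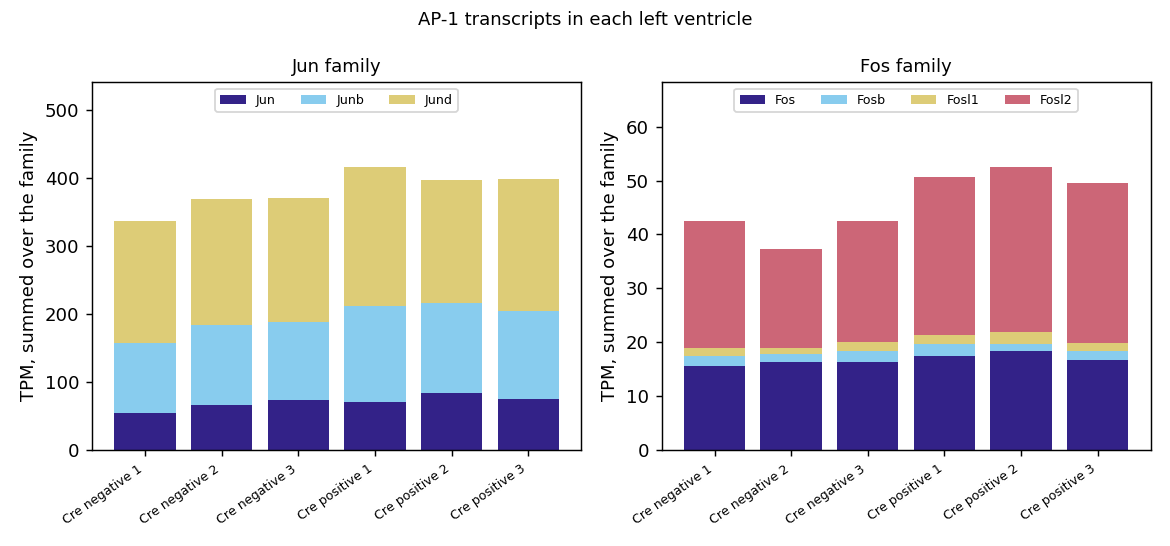
TPM of the Jun family (*Jun*, *Junb*, *Jund*) and of the Fos family (*Fos*, *Fosb*, *Fosl1*, *Fosl2*) stacked for each left ventricle, on separate axes that start at 0. The Jun family summed to 337 to 416 TPM and the Fos family to 37.3 to 52.5 TPM, with *Jund* and *Fosl2* as the largest shares.

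*Atf3* (gene number 11910, chr1:191170296-191183333, minus strand), a stress-induced factor of the ATF/CREB group that can dimerize with Jun, varied between ventricles more than between genotypes. Its normalized counts were 259, 347 and 350 in Cre negative and 332, 459 and 261 in Cre positive ventricles. The lowest values of both groups were nearly equal, and Cre positive replicate 2 was the highest. *Atf3* had a log2 fold change of 0.14 (SE 0.22, 95% interval −0.37 to 0.64, adjusted p = 0.856, edgeR), which turned to −0.11 without Cre positive replicate 2.

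*Egr1* (gene number 13653, chr18:34861207-34864956) and *Egr2* (gene number 13654, chr10:67534469-67542188, plus strand) encode zinc finger factors with nearly the same DNA motif, *Egr1* being known as a target of SRF in injured tissue. *Egr1* had 895, 705 and 1022 normalized counts in Cre negative and 1151, 836 and 848 in Cre positive ventricles, with overlap. The difference of 0.11 on the log2 scale (SE 0.17, adjusted p = 0.849, edgeR) turned to −0.05 without Cre positive replicate 1 and to −0.02 without Cre negative replicate 2.

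*Egr2*, which is also known from macrophages and Schwann cells, had a coefficient of variation of 22.2%, close to the 21.9% of *Fosb* and *Atf3*. Its normalized counts were 152, 190 and 290 in Cre negative and 256, 265 and 245 in Cre positive ventricles. The Cre positive values were close together at 255 ± 10.0 (SD, n = 3), and the Cre negative values spanned them at 211 ± 71.3 (SD, n = 3). *Egr2* differed by 0.27 on the log2 scale (SE 0.22, 95% interval −0.24 to 0.79, adjusted p = 0.736, edgeR). Single ventricles set its size, with 0.09 without Cre negative replicate 1 and 0.58 without Cre negative replicate 3. In the former ventricle the sum of 7 macrophage markers was also lowest, at 1651 TPM against 2135 to 2656 in the others, though not each marker was (*Mrc1* was 28.0 TPM there and 26.7 in Cre negative replicate 2). Their part in the *Egr2* value was not tested. *Egr1* made up 66.0 to 77.5% of Egr family TPM, *Egr2* 14.3 to 21.9%, *Egr3* 8.2 to 12.2% and *Egr4* at most 0.7%.

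*Nr4a1* (gene number 15370, chr15:101253902-101274795, plus strand), an orphan nuclear receptor active in monocytes and macrophages, had 571, 461 and 551 normalized counts in Cre negative and 500, 511 and 508 in Cre positive ventricles. The Cre positive values fell inside the range of the Cre negative ones. Its log2 fold change was −0.06 (SE 0.10, 95% interval −0.30 to 0.18, adjusted p = 0.870, edgeR) and became 0.06 on log2(TPM + 1), where the median of all genes was 0.11. Leaving out single ventricles gave −0.15 without Cre negative replicate 2 and −0.004 without Cre negative replicate 1. *Nr4a1* made up 86.9 to 89.4% of Nr4a family TPM in Cre negative and 84.0 to 86.2% in Cre positive ventricles, with *Nr4a2* at 1.36 to 2.69 TPM and *Nr4a3* at 1.34 to 2.57 TPM.

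*Ier2* (gene number 15936, chr8:84661331-84662852), which encodes a small nuclear protein of the growth factor response, had 419, 443 and 479 normalized counts in Cre negative and 484, 422 and 473 in Cre positive ventricles. The groups overlapped almost fully. *Ier2* differed by 0.04 on the log2 scale (SE 0.10, 95% interval −0.19 to 0.27, adjusted p = 0.916, edgeR), and it was −0.01 without Cre negative replicate 1.

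The members did not follow a single order over the ventricles. In normalized counts 5 of the 10 were highest in Cre positive replicate 1 (*Fos*, *Junb*, *Egr1*, *Ier2* and *Myc*), which also had the most *Myl7* and *Myh1*, and 4 were lowest in Cre negative replicate 1 (*Jun*, *Egr2*, *Atf3* and *Ier2*). *Fosb* and *Nr4a1* were instead highest in Cre negative replicate 1. The coefficient of variation over all 6 ventricles ran from 3.59% for *Fos* to 22.2% for *Egr2*, with a median of 11.3%, while the median was 13.3% over all genes tested and 11.9% over the 10392 genes in the members' range of expression. The even genes were *Fos*, *Ier2* (6.41%), *Junb* (7.54%), *Nr4a1* (7.57%) and *Jun* (8.67%). *Myc* (13.9%), *Egr1* (17.2%), *Fosb* (21.9%), *Atf3* (21.9%) and *Egr2* lay above the median of all genes. The nearest members were *Fos* and *Junb*, whose centred log2 profiles lay a root mean square distance of 0.088 apart, and the farthest were *Fosb* and *Atf3* (0.542).

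**Figure D4:**
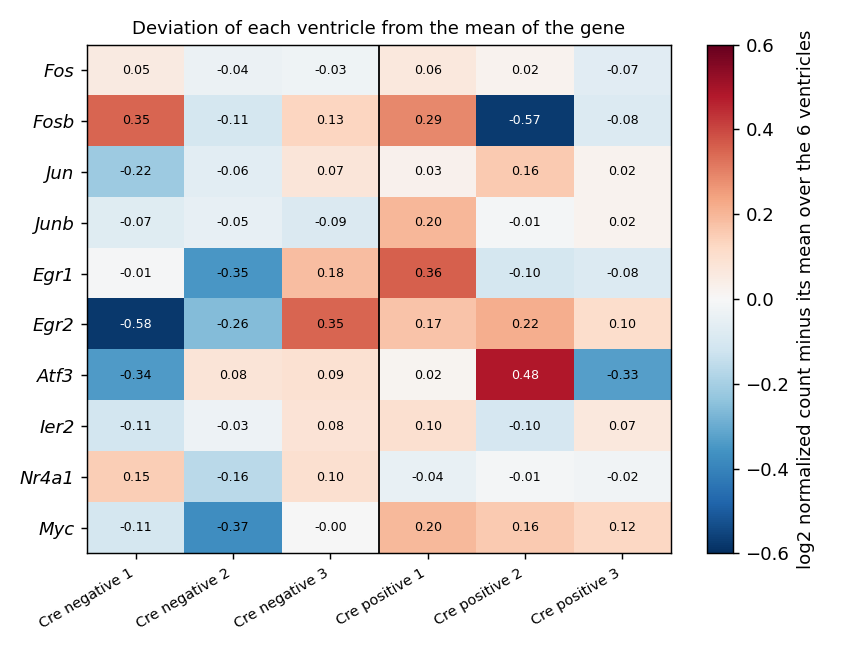
Log2 normalized count of each gene in each ventricle after subtracting the gene's mean over the 6 ventricles, Cre negative on the left and Cre positive on the right of the line. *Fosb*, *Egr2* and *Atf3* had the largest deviations, from −0.58 to 0.48, and all deviations of *Fos* lay between −0.07 and 0.06.

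Averaged over the 10 genes, the centred log2 profile was −0.09, −0.13 and 0.09 in Cre negative and 0.14, 0.02 and −0.03 in Cre positive replicates 1 to 3. The 5 other genes closest to this average among all genes tested, by root mean square distance over the 6 ventricles, were *Spindoc* (0.014), *Elavl1* (0.0206), *Ndfip2* (0.0243), *Orc2* (0.0308) and *Lmna* (0.0325). They were present at 7.47 to 266 TPM. With 6 points from the same libraries, this likeness is a description.

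Other genes of the immediate early pathway were counted in 6 lists, and 0 genes of any of these lists passed in either direction (edgeR, smallest adjusted p 0.714). Among 29 tested immediate early genes outside the 10, 24 had a log2 fold change above 0 and 5 below, with a median of 0.08. The smallest p-values were those of *Npas4*, *Plk3* and *Plk2*. *Npas4*, a neuronal activity factor, had 9 to 22 counts in Cre negative and 28 to 38 in Cre positive ventricles (log2 fold change 0.90, SE 0.34). The polo-like kinases *Plk3* and *Plk2* had log2 fold changes of 0.36 and 0.23. In 4 of the 29 genes the groups did not overlap, with Cre positive above (7.55% of all genes tested), and these 3, named for their small p, were among them. None passed the test, and *Plk2* had 0.12 without Cre negative replicate 1.

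Of 20 upstream regulators, such as SRF, ETS partners and MAP kinases, 8 had a log2 fold change above 0 and 12 below, with a median of −0.04. *Srf* had 2404 to 3437 normalized counts in Cre negative and 2428 to 2763 in Cre positive ventricles. The smallest p-values belonged to the SRF partner *Elk4* (log2 fold change 0.32), the kinase *Map2k2* (−0.17) and the SRF coactivator *Mkl1* (0.18, and 0.07 without Cre negative replicate 1), each with an adjusted p of 0.714 or 0.716 (edgeR). In the list of 16 feedback inhibitors 12 were above 0, with a median of 0.13. *Dusp6*, which inactivates ERK, had 511 to 589 normalized counts in Cre negative and 633 to 668 in Cre positive ventricles (log2 fold change 0.23, SE 0.09). *Nab2*, a corepressor of Egr proteins, had 459 to 567 against 569 to 644 (0.26, SE 0.11), and *Dusp4* had a log2 fold change of 0.47. *Dusp1*, the phosphatase that is itself an immediate early gene, had −0.20. For *Dusp6*, *Nab2* and *Dusp4* the groups did not overlap, with Cre positive above, as in 5 of the 16 genes of this list and in 7.55% of all genes tested.

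Among the AP-1 and CREB/ATF partners (15 tested, 10 above 0, median 0.06) the smallest p-values, not the largest changes, were those of *Fosl2*, *Batf2* (−0.39) and *Mafg* (0.15). Of 11 Myc network genes 7 were above 0, with a median of 0.04. *Mycn* (0.50), *Mxd1* (0.19) and *Mycl* (0.69) had the smallest p-values, and *Mycl* rested on under 1 TPM in every ventricle, with 0.25 to 1.47 when single ventricles were left out. Of 20 known Myc targets 16 were above 0, as were 51.2% of all genes tested, and their median was 0.12. In 6 the groups did not overlap, with Cre positive above (7.55% of all genes tested). The largest fold change of this list was downward, in *Tfrc* (−0.605, SE 0.282, adjusted p = 0.714, edgeR), where the groups overlapped. The smallest p-values were those of *Nop56*, *Gnl3* and *Srm*. *Nop56*, a component of the box C/D snoRNPs that modify rRNA, had 425 to 551 normalized counts in Cre negative and 593 to 693 in Cre positive ventricles (log2 fold change 0.35, SE 0.12). The nucleolar GTPase *Gnl3* had 226 to 293 against 316 to 338 (0.33, SE 0.12), and the polyamine enzyme *Srm* had 643 to 780 against 806 to 1024 (0.28, SE 0.13, and 0.16 without Cre positive replicate 1). *Nop56*, *Gnl3* and *Srm* all had an adjusted p of 0.714 (edgeR), so the differences did not hold up against the number of genes tested.

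**Figure D5:**
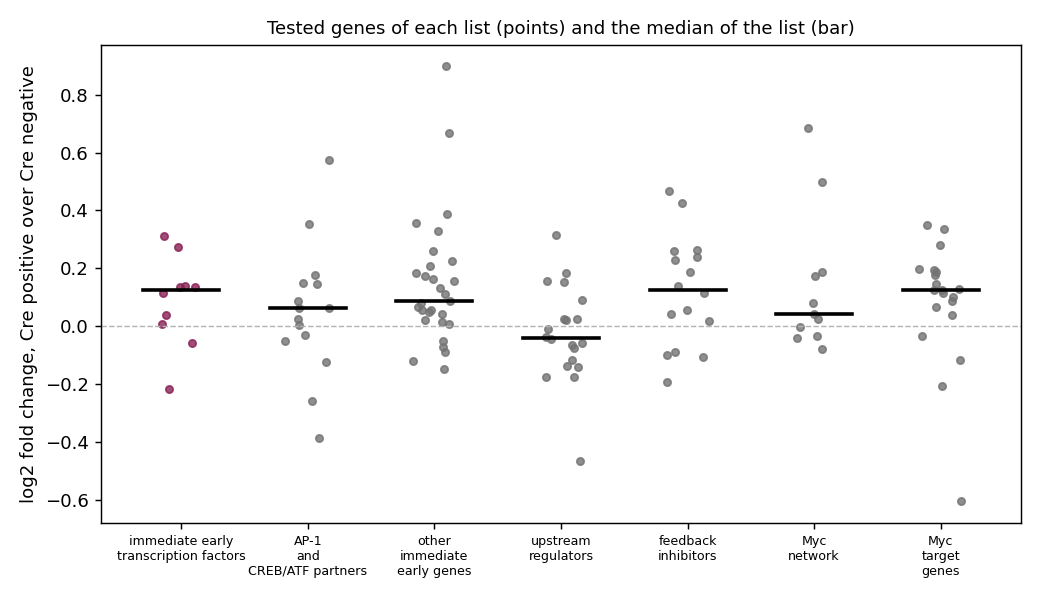
Log2 fold change between Cre positive and Cre negative ventricles for every tested gene of the 10 immediate early transcription factors and of the 6 related lists, with a bar at each median. The medians ran from −0.04 (upstream regulators) to 0.13 (feedback inhibitors), and no point passed the adjusted threshold.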

How the data were processed

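Per the submitters' processing notes, reads were processed with Bowtie2 2.2.5, RSEM 1.2.12 and GRCm38.p6. The authors deposited an estimated count, a TPM and an FPKM value per gene and ventricle. Estimated counts, as deposited, carry no scaling, and RSEM divides reads shared between genes, so 10.97 to 11.77% of values are not whole. The authors' TPM values sum to 1000000 per ventricle, and the deposited FPKM values were not used. A second deposited table holds the authors' own DESeq2 fold changes, p-values and q-values and was not used. Total counts were 13177888 to 14827579 per ventricle.

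Estimated counts were rounded and filtered with filterByExpr (minimum count 10, minimum total 15), which left 13817 genes. They were scaled by TMM to a mean library size of 14293745 and compared with the quasi-likelihood test of edgeR 4.0.16 in R 4.3.3, without covariates, with Benjamini-Hochberg adjustment at 0.05. Standard errors were derived from the F statistic and 95% intervals from its degrees of freedom. The script was tested on simulated data. Exact permutation tests used scipy 1.17.1 on log2 values (prior count 0.5) and were two-sided. Alternatives were DESeq2 1.42.0, limma 3.58.1 on log2(TPM + 1) and log2(TPM + 0.1), other scalings and filters, a replicate block and leaving out each ventricle. Figures were drawn with matplotlib 3.10.9.

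Members and lists were chosen with earlier results of these data known. The genes named are the 10 members, the 3 genes of each list with the smallest p, the 5 most alike in profile, the targeted genes, and marker genes where a value stands beside a result. *Jund*, *Dusp1*, *Srf*, *Tfrc*, other family members and the skeletal muscle myosins were added after their values were seen. The motifs of the CRE core, the TATA box and the *Jun* site were also added then. One T cell marker was not found. Gene positions and promoters are those of RefSeq on GRCm38.p6.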

Additional observations from a re-analysis of the deposited data

How the results depend on the processing

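The number of members with an adjusted p under 0.05 was 0 in all 15 other settings, which included DESeq2's Wald test, limma on TPM and a threshold of 0.1. Over all genes it was 1, and it was 5 with DESeq2's Wald test, 0 with a replicate block (1217 genes with an unadjusted p under 0.05) and 0 to 2 when single ventricles were left out (0 without Cre negative replicate 3, Cre positive replicate 1 or 3, and 2 without Cre negative replicate 1). In the fit with the replicate block the log2 fold change of *Myc* was 0.32 (adjusted p = 0.562, edgeR). Deviations of same-numbered ventricles from their group means had correlations across genes of 0.331, 0.045 and −0.030. Pairs with different numbers ran from −0.352 to 0.332, so these values cannot decide whether same-numbered ventricles were linked.

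Of 140 refits of single members, 128 kept their direction and 12 reversed. *Fos* was −0.002 with DESeq2's size factors, −0.001 with DESeq2's Wald test and −0.021 to 0.041 over the fits that left out a ventricle. In these fits *Egr1* ranged from −0.054 to 0.242, *Atf3* from −0.107 to 0.307 and *Ier2* from −0.009 to 0.097. *Nr4a1* was 0.058 and 0.060 on log2(TPM + 1) and log2(TPM + 0.1), and the median of the members was 0.231 on the latter, where the median of all genes was 0.125. The cause was not tested. Single ventricles moved the members' median between 0.037 and 0.170. *Fosb* had 36 to 61 counts, where counting alone gives a coefficient of variation of 14.1%, and 21.9% was measured.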

Other observations

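Ventricles of the same genotype differed in atrial and neutrophil transcripts. *Myl7* was 492, 306 and 61.1 TPM in Cre negative and 611, 18.1 and 185 TPM in Cre positive ventricles, and *Sln*, an atrial regulator of the calcium pump, was 189, 141 and 31.2 TPM and 318, 5.04 and 83.7 TPM. The natriuretic peptide *Nppa* was 14404 TPM in Cre positive replicate 1 and 6634 to 8877 TPM in the others. *S100a9*, a neutrophil calcium-binding protein, was 203 TPM in Cre negative replicate 1 and 20.8 to 66.1 TPM in the others, and the neutrophil surface gene *Ly6g* was listed at 0 in 4 of the 6 ventricles. *Csf3r*, the receptor for granulocyte colony-stimulating factor, was instead lowest in Cre negative replicate 1, at 12.3 TPM against 17.4 to 25.9 TPM.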
